A study of Mus musculus with 2 samples.

Results

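Cd8b1 encodes the beta chain of CD8, and its transcripts were counted in 2 sections of mouse liver by MERFISH, in which single RNA molecules are imaged and told apart by a barcode. The gene is 1 of 500 on the panel, which also carried 50 blank barcodes that name no gene. It was selected on its clumping index and its positions in these sections, where its molecules piled up in 1 place, so the clumping is given as a description, with no test. The labels put both sections in a single group as replicates, with no genotype, strain, age or treatment. The design text of the series describes treated mice with liver metastases, and no label ties a section to such a treatment. Livers were snap frozen and cut at 10 µm, and no label says whether the sections came from separate animals. The meaning of 2d, part of both sample names, was not assumed.

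CD8 is the co-receptor that lets a cytotoxic T cell read antigen on MHC class I molecules. The beta chain reaches the cell surface paired with the alpha chain and is used as a marker of conventional cytotoxic T cells, which in liver patrol the sinusoids. T cells of every kind also carry the CD3 chains of the T cell receptor complex, encoded by Cd3d, Cd3e and Cd3g. Cd8a, the gene of the alpha chain, was not on the panel, so Cd8b1 was the panel's gene for CD8. Its deposited molecules were all assigned to the transcript ENSMUST00000065248.

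Section 1 held 715621 gene transcripts, and 26037 segmented cells with a median of 4 counts in cells without Cd8b1. Section 2 held 724847 gene transcripts, and 85929 cells with a median of 3. The liver label fits the deposited molecules, since 181995 transcripts in section 1 and 214480 in section 2 belonged to the hepatocyte list, and Hp (haptoglobin, an acute phase protein of hepatocytes) alone gave 112692 in section 2. Lengths are in µm by assumption, since the deposited headers give no unit.

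Cd8b1 was rare in both sections. Section 1 held 180 Cd8b1 transcripts, or 25.2 per 100000 gene transcripts, and section 2 held 68, or 9.38 per 100000. In section 1, 321 genes and 15 of the 50 blank barcodes had more transcripts, and in section 2, 375 genes and 8 of 49 detected blanks. The median blank held 71 transcripts in section 1 and 13 in section 2, and the highest held 987 and 2140. Cd8b1 thus lay inside the range of barcodes that name no gene in both sections.

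The layout differed between the sections. In section 1 the 180 transcripts lay in 171 tiles of 50 µm and in 115 fields of view, and no tile held more than 3. In section 2 the 68 transcripts lay in 36 tiles and 22 fields of view, and the fullest tile held 8. The median distance from a Cd8b1 transcript to its nearest other one was 94.2 µm in section 1 and 16.2 µm in section 2. Cd8b1 therefore lay closer together in the section that held fewer of its molecules.

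**Figure D1:**
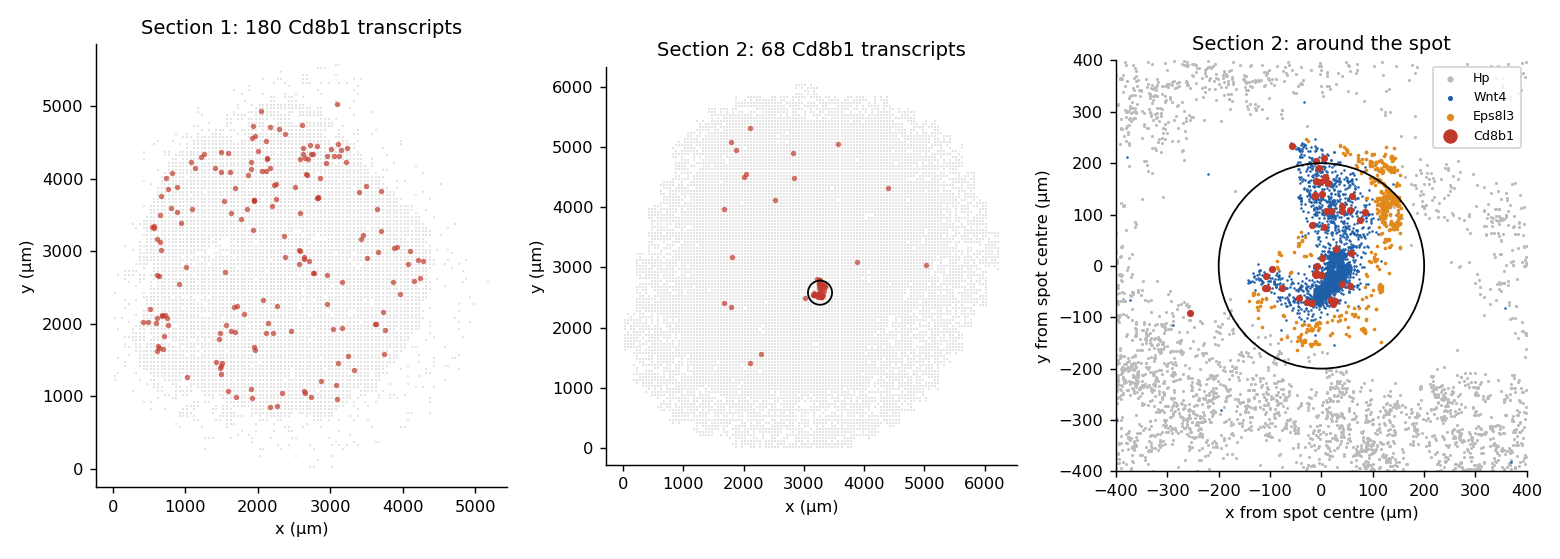
Positions of Cd8b1 transcripts (red points) in both sections, over the tiles that held any gene transcript (grey), and the surroundings of the spot in section 2 with Hp, Wnt4 and Eps8l3; axes are in µm and the circle has a radius of 200 µm. The 180 transcripts of section 1 are spread across the tissue, while 46 of the 68 in section 2 lie inside the circle.

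A clumping index was computed for every code with at least 50 transcripts, as the chance that a pair of its molecules shares a 50 µm tile, relative to an even spread over all tiles with a transcript (Morisita's index, 1 for an even spread). Cd8b1 had an index of 3.58 in section 1, where the median gene stood at 4.41 and the median blank at 3.83. It ranked 348 of 486 codes there, below 329 genes and 18 of 30 blanks. In section 2 its index was 373, against a median of 4.28 for genes and 9.98 for blanks. It ranked 3 of 420 codes there, and 0 of 13 blanks stood higher.

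The codes around Cd8b1 in that order differed between sections. In section 1 its neighbours were Rnf138 with an index of 3.58 and Cebpa with 3.55. The most clumped blanks of section 1 were Blank-43 at 8.29, Blank-15 at 7.77 and Blank-49 at 6.38. In section 2 the codes above Cd8b1 were Wnt4 (a secreted signalling ligand) with an index of 563 and Eps8l3 (an Eps8-related protein) with 548. The code just below was Vldlr (the very low density lipoprotein receptor) with 309, followed by Itga2 (the alpha 2 integrin, a collagen receptor) with 230. Blank-5 came next with 219, and the blanks after it were Blank-9 with 106 and Blank-27 with 92.4.

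**Figure D2:**
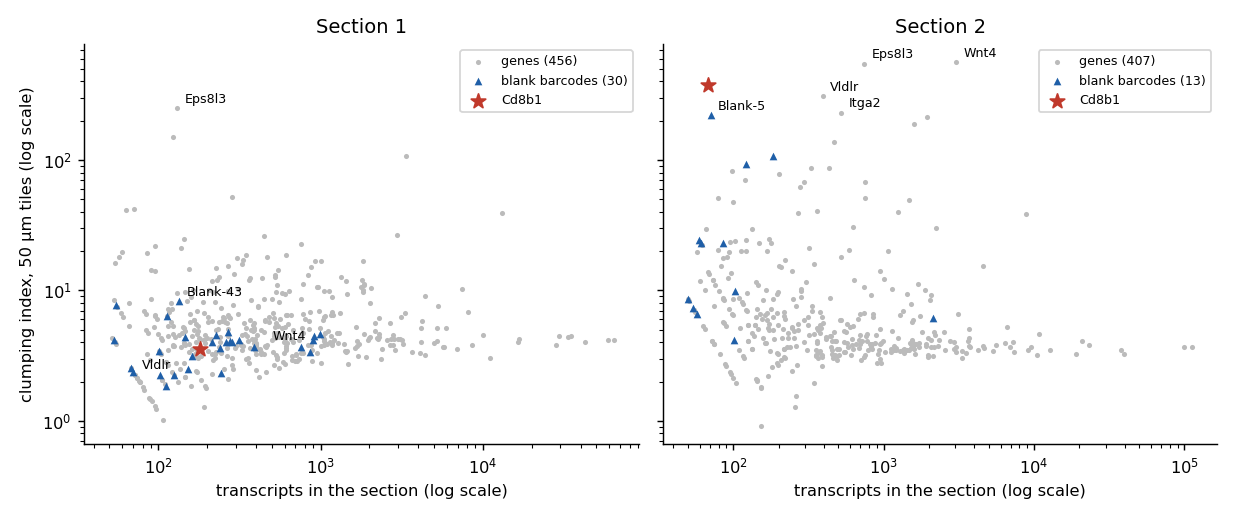
Clumping index (50 µm tiles, log scale) against the number of transcripts (log scale) for every gene (grey), blank barcode (blue triangles) and Cd8b1 (red star) with at least 50 transcripts. Cd8b1 lies among genes and blanks in section 1 and near the top in section 2, beside Wnt4, Eps8l3, Vldlr and Blank-5.

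Clumps were also outlined by density, as at least 5 transcripts of a code linked within 20 µm. No Cd8b1 transcript of section 1 was in a clump. In section 2, 15 of 68 transcripts (22.1%) were, in 1 clump of 5 and 1 of 10. The clump of 10 measured 12.2 by 33.3 µm, spanned 5 image planes and touched 4 cells. The clump of 5 measured 22.8 by 10.5 µm, spanned 3 planes and touched 5 cells. Joining records less than 1 µm apart left 64 positions of 68 in section 2 and 180 of 180 in section 1, so few records were repeats of a position.

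Both clumps belonged to a wider spot. A circle of 200 µm was drawn around the median position of the Cd8b1 transcripts that link within 40 µm, with both sizes set after the positions had been seen. It held 46 of the 68 Cd8b1 transcripts of section 2, or 67.6%, a share that the placing of the circle favours. The circle held 0.891% of all gene transcripts. The other 22 Cd8b1 transcripts were spread over the section. No spot could be outlined by the same rule in section 1.

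The spot was shared with a small set of codes. Wnt4 had 2180 of its 3030 transcripts there (71.9%), Vldlr 279 of 395 (70.6%), Eps8l3 460 of 742 (62.0%) and Itga2 300 of 523 (57.4%). Cdk1, the mitotic kinase, had 635 of 1588 (40%), and Rgs2, a regulator of G protein signalling, had 97 of 295 (32.9%). Blank barcodes were in it too, with Blank-5 at 30 of 71 (42.3%) and Blank-27 at 39 of 122 (32.0%), while Blank-9 had 11 of 183 (6.01%). In all, 13 of 420 codes, Cd8b1 among them, had over 20% of their molecules in the circle. Of these, 2 were blanks, and 316 codes had under 1%. The circle was centred on Cd8b1 itself, so its own share is not ranked against theirs.

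Wnt4 gave 33.7% of the gene transcripts in the circle. Blanks made up 1.70% of all transcripts inside and 0.486% outside. Hp, by contrast, had 31 of its 112692 transcripts there, so that the most abundant hepatocyte message of the section was nearly missing from the place where Cd8b1 was densest.

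Density fell from the centre outwards for Cd8b1, a fall that is favoured because the centre was set from the Cd8b1 positions. Within 50 µm of the centre there were 11 transcripts, or 14.0 per 10000 square µm. From 50 to 100 µm there were 14 (5.94), from 100 to 200 µm 21 (2.23), and from 200 to 400 µm 4 (0.106). Relative to all gene transcripts Cd8b1 stayed level inside the circle, with 7.03, 7.24 and 7.09 per 1000 in the 3 inner rings, and dropped to 0.31 in the fourth ring.

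The codes of the spot did not share a single profile. Wnt4 had 926, 777, 477 and 83 transcripts in the same 4 rings, so Cd8b1 per 1000 Wnt4 transcripts was 11.9, 18 and 44.0 in the 3 inner rings, 48.2 in the fourth, which rests on 4 Cd8b1 transcripts, and 23.5 beyond 400 µm. Eps8l3 had 4, 25, 431 and 125, with most of its molecules between 100 and 200 µm of the centre. Of its 742 transcripts 413 formed a single clump, and 408 lay in 1 field of view. The rings therefore do not show that Eps8l3 surrounded the centre. Hp had 0, 0, 31 and 1623. In these rings, which were centred on Cd8b1, it was therefore neither a fixed fraction of Wnt4 nor placed like Eps8l3.

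**Figure D3:**
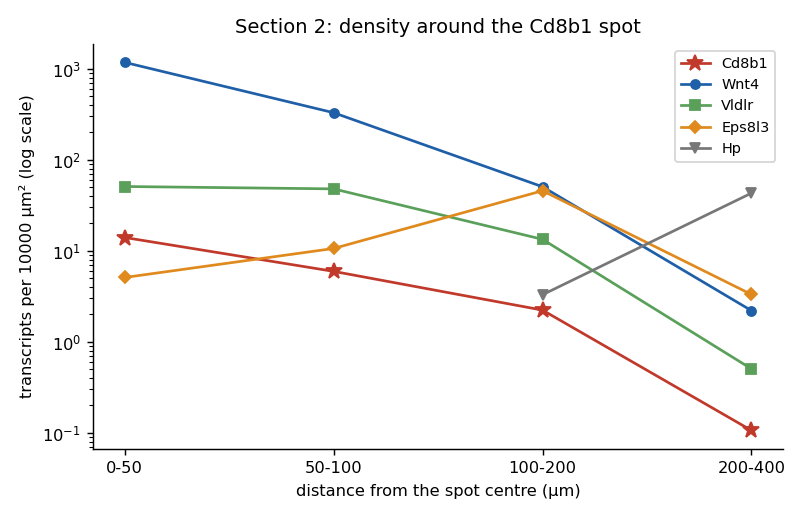
Transcripts per 10000 square µm (log scale) in 4 rings around the centre of the spot in section 2, for Cd8b1, Wnt4, Vldlr, Eps8l3 and Hp. The centre was set from the Cd8b1 positions, which favours a fall of Cd8b1 outwards. Cd8b1 falls from 14.0 in the centre to 0.106 in the outer ring, and Eps8l3 is densest between 100 and 200 µm. Hp, at 0 in both inner rings and so not drawn there, is densest outside 200 µm.

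The circle held 61.0 cells per 10000 square µm. The section's value of 32.8 is taken over every tile with a transcript. The ring from 200 to 400 µm, with 2334 cells, was about as dense in cells as the circle. The stains differed from those of the section. Relative to the section, the stain signals per cell volume in the innermost ring were 1.33 for DAPI, which marks DNA, 1.51 for PolyT, which marks messenger RNA, and 0.759 for Ttr. The 3 cell boundary stains stood at 0.726, 0.509 and 0.227 there, and the third reached 0.820 in the ring from 100 to 200 µm. Not every value followed the Cd8b1 signal. DAPI stood at 1.09 in that ring and at 1.14 from 200 to 400 µm, and GFP at 1.02 in the innermost ring. The innermost ring, with 26 cells, was less dense in cells than the rings around it. The part of these values in the Cd8b1 signal was not tested.

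The spot's genes were also followed in section 1. Eps8l3, which ranked 2 in section 2, was the most clumped code of section 1. Its largest clump there held 24 of its 131 transcripts, and no Cd8b1 transcript lay within 200 µm of that clump. Wnt4, with 457 transcripts, and Vldlr, with 72, formed no clump there. The largest clump of Itga2 held 5 of 1047 transcripts and that of Cdk1 6 of 708, and each had 3 Cd8b1 transcripts within 200 µm.

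Image planes run from 0 to 6 through the depth of each section. Cd8b1 was read deeper than most genes. Its transcripts numbered 51, 47, 37, 12, 14, 10 and 9 from plane 0 to plane 6 in section 1, and 7, 12, 17, 9, 6, 10 and 7 in section 2. In section 1, 28.3% (21.9 to 35.5) lay in plane 0, against 47.7% of all gene transcripts and 36.7% of blank transcripts. In section 2 the share was 10.3% (4.24 to 20.1), against 30.7% of gene and 26% of blank transcripts.

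The mean plane of Cd8b1 was 1.76 in section 1, where the median gene stood at 1.30 and the median blank at 1.57, with 47 genes and 8 blanks deeper. In section 2 it was 2.78, against 1.84 and 2.17, with 15 genes and 2 blanks deeper. Inside the spot the mean was 3.04 and outside it 2.23. All codes together were also deeper in the spot, at 2.65 against 1.76, but Eps8l3 stood at 0.99 there and Wnt4 at 3.08.

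**Figure D4:**
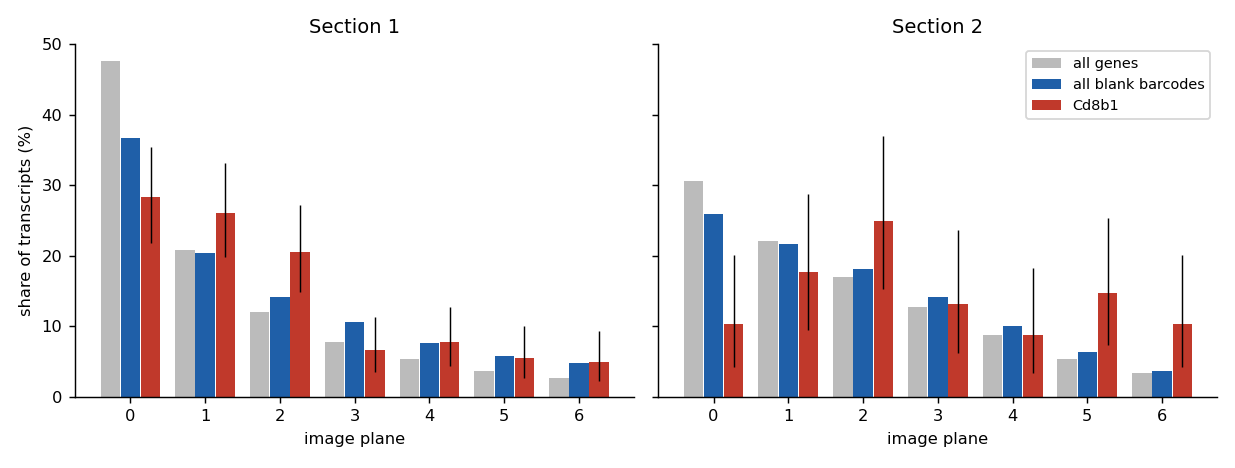
Share of transcripts in each image plane for all genes (grey), all blank barcodes (blue) and Cd8b1 (red, with exact 95% binomial intervals). Cd8b1 has 28.3% of its transcripts in plane 0 in section 1 and 10.3% in section 2, below genes and blanks in both.

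Another trait of the records set blanks apart from most genes. The coordinates of some molecules within their field of view fall on a whole pixel in x or y, within 0.0001 pixels. This held for 33.5% of the transcripts of the median gene and 52.9% of those of the median blank in section 1, and for 36.3% and 59.4% in section 2. Cd8b1 had 46.7% in section 1, where 26 of 30 blanks and 84 genes were higher. In section 2 it had 63.2%, with 2 blanks and 5 genes higher. Inside the spot 69.6% of Cd8b1 and 62.7% of all transcripts were of this kind, against 50% and 32.5% outside. What such positions mean in the decoding is not given in the sources used here.

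The share of Cd8b1 outside segmented cells was 54.4% (46.9 to 61.9) in section 1, close to the median blank at 55.6% and above the median gene at 39.8%. In section 2 it was 33.8% (22.8 to 46.3), against 38.0% for the median blank and 31.7% for the median gene. Within section 2 it was 26.1% in the spot and 50% among the 22 transcripts elsewhere.

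The genes most like Cd8b1 in space were taken by Pearson's r of transcripts per tile, over 5766 tiles in section 1 and 10488 in section 2, with the lower of both sections deciding. Tiles of a section share its depth and tissue coverage, so r is given as a description. Cldn1, a tight junction gene, came first with 0.116 in section 1 and 0.63 in section 2. Wnt4 followed with 0.0813 and 0.745, Itga2 with 0.0750 and 0.730, Actn1 (an actin crosslinker) with 0.0683 and 0.269, and Arhgap35 with 0.0678 and 0.316. The closest blanks were Blank-5 with 0.0678 and 0.652, Blank-27 with 0.0638 and 0.0926, and Blank-19 with 0.0537 and 0.236. Cldn1 stayed first with 25 µm and 100 µm tiles and with Spearman's rho, but the first 5 genes shared 2, 3 and 4 members with this list, and with 25 µm tiles Wnt4 ranked 10 and Itga2 17.

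In section 1 every code ranked correlated weakly with Cd8b1. The highest r was 0.173, with Gzma, a granzyme of cytotoxic cells, followed by Slfn1 with 0.156 and Rab17 with 0.143. A blank, Blank-40, ranked 4 with 0.141, and 2 with Spearman's rho, where Gzma stayed first. With 25 µm tiles Lrp6 was first and Gzma ranked 7, and with 100 µm tiles Slfn1 was first and Gzma ranked 2. In section 2 the highest were Vldlr with 0.771 and Wnt4 with 0.745, and Gzma stood at 0.0111. The gene order of section 1 was thus of weak correlations in sparse counts, and that of section 2 followed the spot.

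Whether Cd8b1 marked T cells was asked first of its surroundings. The T cell list named 28 genes besides Cd8b1, of which 14 were on the panel, and the list of cytotoxic and NK cells had 7 of 15. Within 10 µm of the Cd8b1 transcripts of section 1 there were 7725 other gene transcripts, and 48 of them belonged to the T cell list, or 62.1 per 10000 against 27.1 in the whole section. CD3 genes gave 10, or 12.9 against 6.09 per 10000, and the cytotoxic and NK list gave 69, or 89.3 against 57.2. Blank transcripts were also more frequent there, at 188 against 129 per 10000.

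The same count was made around every code with 50 to 20000 transcripts. Neighbourhoods of a code were pooled, so rates around rare codes such as Cd8b1 rest on few transcripts and vary more. The ranks were not matched for abundance. In section 1 the T cell list rate around Cd8b1 was above that of all 30 blanks, whose median was 31.5 and highest 47.6, and 5 of 436 genes outside the list were higher. For CD3 genes alone 1 blank and 14 such genes were higher. In section 2, 1 of 2257 neighbouring gene transcripts belonged to the T cell list, or 4.43 against 18.2 per 10000, and none to CD3. There 12 of 13 blanks and 388 of 391 genes had a higher T cell list rate than Cd8b1, and Wnt4 gave 556 of the 2257 neighbours.

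**Figure D5:**
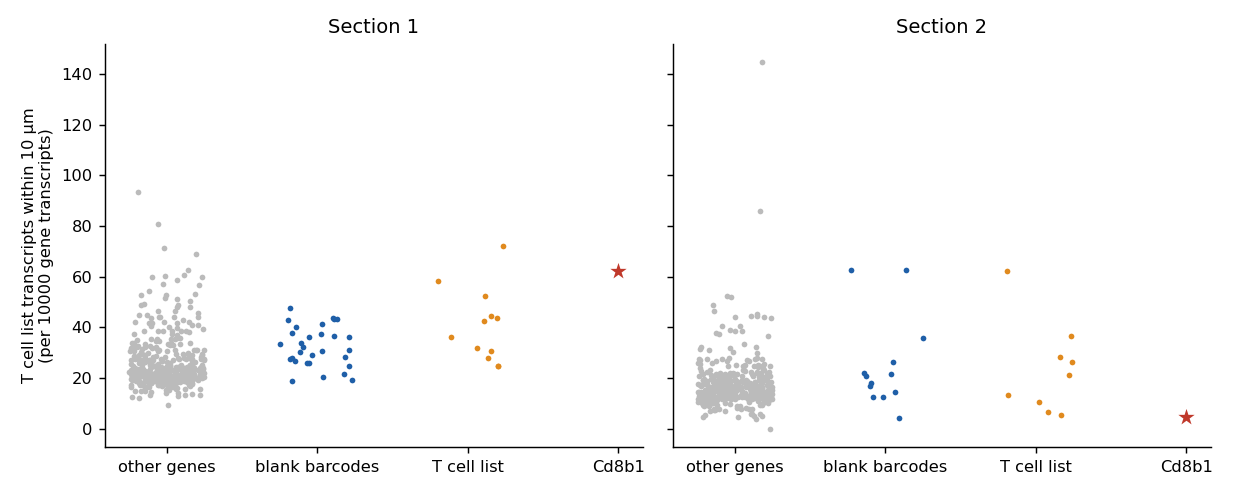
Transcripts of the T cell list within 10 µm of each code, per 10000 gene transcripts there, for genes outside the list, blank barcodes, genes of the list (without themselves) and Cd8b1; each point is a code. Cd8b1 stands at 62.1 in section 1, above all 30 blanks, and at 4.43 in section 2, below 12 of 13 blanks.

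The Cd8b1 transcripts of section 2 away from the spot also had few T cell genes beside them. Around these 22 transcripts outside it, 1 of 841 gene transcripts was of the T cell list, or 11.9 per 10000, and none was of CD3. Hepatocyte transcripts were as frequent there as in the section, with 2913 against 2959 per 10000. Wnt4 stood at 214 per 10000 against 41.8 in the whole section, a rate that includes the spot. Away from it Wnt4 was rarer, with 6.51 per 1000 gene transcripts from 200 to 400 µm of the centre and 1.09 per 1000 beyond. Of the 22 Cd8b1 transcripts, 4 lay from 200 to 400 µm. With 841 neighbours, a T cell list rate like that of the section, 18.2 per 10000, would give too few transcripts to tell the rates apart.

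Cell by cell, Cd8b1 was at the limit of detection. In section 1, 81 of 26037 cells (0.311%) had a Cd8b1 count, with 82 counts in all and at most 2 in a cell. In section 2, 36 of 85929 cells (0.0419%) had one, with 45 counts in all and 6 in the fullest cell. Over all cells, those with Cd8b1 had a median of 12 other gene counts against 4 in section 1 and 9.5 against 3 in section 2. Among cells kept for the class and edgeR comparisons the medians were 23 against 27 in section 1 and 25.5 against 15 in section 2.

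In section 1, 10 of the 81 cells with Cd8b1 (12.3%, 6.08 to 21.5) had a count of the T cell list, against 879 of 25956 cells without it (3.39%). Per 10000 gene counts the list gave 104 in cells with Cd8b1 and 23.9 in cells without. CD3 genes were in 3 of 81 cells (3.70%) against 0.732%, the cytotoxic and NK list in 20 (24.7%) against 5.96%, and blanks in 24 (29.6%) against 12.1%. To compare at 1 depth, cells with at least 10 other counts were thinned to 10. The expected share with a T cell list count was then 9.79% in 47 cells with Cd8b1 and 2.46% in 9158 without, where the unthinned shares were 21.3% and 7.77%. For CD3 the thinned shares were 1.06% and 0.507%.

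A single cell carried 10 of the 25 T cell list counts. This cell, the one of section 1 with the most such counts of all 26037, had 1 Cd8b1 count, 6 of Tcf7 (a transcription factor of naive and memory T cells), 3 of Lef1 (its relative) and 1 of Cd3e. Another had 1 count each of Cd4, Lef1, Il7r and Thy1, and a further one had 2 of Cd4, the co-receptor of helper T cells, and 1 of Cd2. Cd3g was found with Cd8b1 in 2 cells and Cd27 in 2. Of the 14 genes of the list, Cd3d, Cd6, Cd28 and Pdcd1 were in none of the 81 cells, where 0 of 81 allows a share of up to 3.70%.

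Shared cells of this kind were few for every T cell gene at this depth. Of cells with Cd8b1 in section 1, 12.3% held another gene of the list, against 20.6% of 107 cells with Cd3e, 25% of 76 with Cd3g, 13.0% of 54 with Cd4 and 9.38% of 32 with Cd5. Their median counts were 12 with Cd8b1 and 26, 49.5, 42 and 24.5 with the others, so these shares are not at 1 depth. In section 2 none of the 36 cells with Cd8b1 held one, which allows a share of up to 8.33%, against 16.3% of 49 cells with Cd3e, 9.68% of 31 with Cd3g and 2.45% of 204 with Cd4. Several T cell genes were as low there as Cd8b1, with none of 34 cells for Cd2 and of 7 for Cd5, 1.89% of 53 for Il7r and 2.86% of 35 for Cd3d. Cells without Cd8b1 in section 2 had a T cell list count in 0.940% of cases.

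Cells were kept from 10 counts of genes other than Cd8b1 and 50 cubic µm upwards, and kept cells were given a class where at least 3 counts of 1 marker list stood at 1.5 or more times their share in the section. Such a class is a range of a score, and 11 of the 23 cells of the T cell class in section 1 were at the minimum of 3. Cd8b1 was in 3 of these 23 (13.0%, 2.78 to 33.6, median 53 counts). This became 4 of 64 (6.25%) at a minimum of 2 marker counts and 1 of 6 (16.7%) at a minimum of 5. The 3 cells were those described above with 10, 4 and 3 T cell list counts, so the share is no separate evidence. The first had 1 Cd3e count, and the others had Cd4 and no CD3 count. Cd8b1 was in 9 of 1528 cells of the hepatocyte class (0.589%, 0.270 to 1.12, median 29 counts), which should lack the gene. It was also in 1 of 99 B lineage class cells (1.01%), or 4 of 225 (1.78%) at a minimum of 2 marker counts. At the minimum of 3 it was further in 3 of 385 mesenchymal, 2 of 587 erythroid, 2 of 277 endothelial and 1 of 207 macrophage class cells. None of 42 cytotoxic and NK class cells had it, which allows a share of up to 7.14%. Most of its cells were elsewhere, with 26 in no class and 34 not kept. In section 2 it was in 0 of 7 T cell class and 0 of 2308 hepatocyte class cells. These allow shares of up to 42.9% and 0.130%, so the 7 cells do not show that T cells lacked it.

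The 767 cells centred inside the spot gave the cell view of section 2. Of these, 25 had Cd8b1, and 23 of the 25 (92.0%) also had Wnt4, against 206 of 742 (27.8%) without Cd8b1. The 25 had a median of 11 counts and the others 1. The fullest cell held 6 Cd8b1 counts in planes 2 to 5, within 2.59 by 2.46 µm, beside 39 other gene counts, 9 of them Wnt4. No cell in the spot had a CD3 count.

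Transcripts of T cell genes in the spot were few, inside or outside cells. Cd3d had 2 of its 61 transcripts there, and Cd3e and Cd3g had none of 63 and 37. Ptprc, the pan-leukocyte antigen CD45, had none of 35, Tcf7 none of 163 and Thy1 none of 207. The T cell list as a whole had 23 of 1322 there (1.74%), above the 0.891% of all gene transcripts, and 17 of the 23 were Cd28, which encodes a co-stimulatory receptor. Without Cd28 the list had 6 of 1243 (0.483%). Totals this small cannot show whether single T cell genes were depleted there. Within 10 µm of the Cd8b1 transcripts in the spot, 0 of 1418 gene transcripts belonged to the list, and 538 were Wnt4.

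A test across all genes compared summed counts of kept cells with and without Cd8b1, with the section as a block. The sums with Cd8b1 were small, at 2231 counts from 47 cells in section 1 and 708 from 18 cells in section 2, against 387789 and 299030. In edgeR's quasi-likelihood test 0 of 424 genes passed at an adjusted p of 0.05 (0%), none passed at an unadjusted p of 0.05, and DESeq2 called 0 as well, with 14 at an unadjusted p of 0.05. The median log2 change of all genes tested was -1.19. None of the 10 T cell list genes tested was called. Wnt4 went from 5.00 per 10000 in cells without Cd8b1 to 8.96 in cells with it in section 1, and from 24.7 to 3023 in section 2, and its log2 change was 3.69 (SE 3.21, adjusted p = 0.96). The log2 change of Wnt4 was 0.83 in section 1 and 6.93 in section 2, and the test had 1 residual degree of freedom. The absence of calls does not show that the groups were alike. No test was made of genes around the clumps, since section 1 had none.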

How the data were processed

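The deposited tables of both sections were used. Per the file headers, the authors deposited raw counts of 500 genes and 50 blanks in each segmented cell, cell volumes and a stain signal per cell, and 1 record per decoded molecule. Decoding and segmentation software is not given in the sources used here. Recounting the molecules by cell gave the deposited counts for 550 of 550 codes in both sections, and the sections shared 0 cell identifiers. No doublet caller was run. The gene Cd8b1, the marker lists, the named-gene rule and the tests were chosen with earlier results of these data known. Genes were named by rule: Cd8b1, the T cell list on the panel, the 5 genes and 3 blanks most alike in space, the 3 most clumped blanks, the neighbours of Cd8b1 in the clumping order and any gene past the test. The codes of the spot, and the genes highest in a single section, were named after their values were seen.

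Clumps were found with DBSCAN (scikit-learn 1.9.0, Python 3.11.15), and intervals are exact Clopper-Pearson at 95%, for counting error only. A count of 0 is given the limit of 3 counts. Sums were tested with edgeR 4.0.16 (TMM, section as a block, genes with at least 50 counts, 4 sums with 1 residual degree of freedom, Benjamini-Hochberg at 0.05), with DESeq2 1.42.0 as an alternative. The scripts were tested on simulated data. The section number is not known to mark separate animals, so the spread between sections may be technical. Alternatives were tile sizes, clump settings, merged records, marker minimums and filters.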

Additional observations from a re-analysis of the deposited data

How the results depend on the processing

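Of the alternatives run, the clumping index kept its order between sections under each tile size, with transcripts inside cells only and with records within 1 µm merged. Without the circle around the spot, an alternative chosen after seeing the data, the index of section 2 was 45.2, from 22 transcripts. The share in clumps in section 2 was 11.8% at a radius of 10 µm, 69.1% at 40 µm, 50% with at least 3 transcripts and 0% with at least 10. In section 1 it was 3.33% with at least 3. In the clumps of section 2, plane 0 held 0% and 6.67% lay outside cells, which was 50% outside the spot. In section 1, cells with at least 2 Cd8b1 counts gave 0% for the T cell class and 0% for T cell genes, from 1 cell.

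The replicate block was the section. Without it 0 genes were called, and with at least 2 Cd8b1 counts 208 were, 3 higher and 205 lower, where the sum of section 1 held 14 counts from 1 cell. The other filters and normalizations run gave 0. The log2 change of Wnt4 was 0.83 without replicate 2 and 6.93 without replicate 1, as single differences with no test, 0.14 with at least 2 Cd8b1 counts and 0.32 outside the spot. The test around clumps was not run, because section 1 held no clump. Depth limits every value here, since cells held a median of 3 or 4 counts.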

Other observations

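Other codes with immune names also had an unusual share in the spot of section 2. Lag3, an inhibitory receptor of T cells, had 29 of its 98 transcripts there (29.6%), Cd28 17 of 79 (21.5%), and Mcpt8, a basophil protease, 118 of 433 (27.3%). The mast and basophil class of section 2, which counts Mcpt8, held Cd8b1 in 2 of 23 cells with 9 counts. Both were cells of the spot, with 6 and 3 Cd8b1 counts and 9 and 15 Wnt4 counts. Since Mcpt8 is a code of the spot, this class call is no separate sign of basophils. In section 1 Lag3 had a clumping index of 4.48.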
